A study of Mus musculus with 24 samples.

Results

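Fgf21, Angptl4, Pdk4, Creb3l3, Vnn1 and Lpin1 are 6 genes that the liver switches on when food is withdrawn, and they were followed here in the livers of 24 young mice that had eaten glucose or a mixture of glucose and galactose. They were found by gene name among the spots of each array that were not controls, and where a gene had several probes the one brightest in Cy5 on average was taken. All 6 had a probe and all 6 passed the filter on dim probes, out of 37074 genes with a probe and 18649 genes tested. The mice were C57BL/6JRcc females of 6 weeks, housed singly, and had been on their diet since 3 weeks of age. In both diets fat gave 16% of the energy, protein 20%, starch 32% and monosaccharides the other 32%, which was glucose alone for 12 mice (GLU) and equal parts of glucose and galactose for 12 mice (GLU+GAL). All animals were killed at postnatal day 42 without food, in the light phase, so no fed group serves as a control, and the sources used here do not state how long the fast lasted. RNA came from the right liver lobe, and each Cy5-labelled mouse was set against 1 Cy3-labelled pool of all mice. Values below are log2 ratios of a mouse over that pool after correction and normalisation, and they compare mice for the same gene. A value of 0 is not taken as the level of the pool. The mean ratio of the hepatocyte markers was above 0 in every mouse, the lowest being 0.0555. The mouse was always in Cy5, and the part of the dyes was not tested. A step of 1 is a doubling of the corrected ratio. A constant was added to both signals before the ratio, which makes changes of dim genes smaller.

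In the fasted liver, fatty acids released from fat tissue bind the nuclear receptor PPARα, which turns on the genes of fatty acid oxidation and ketone synthesis together with several secreted proteins. Fgf21 is such a hormone, made by the liver and acting through the co-receptor β-Klotho, and Angptl4 is a secreted inhibitor of lipoprotein lipase. Creb3l3 (CREBH) is a transcription factor held in the endoplasmic reticulum membrane until proteases release it, and it acts with PPARα on Fgf21. Pdk4 phosphorylates and silences pyruvate dehydrogenase and so spares pyruvate for glucose synthesis, Vnn1 releases cysteamine and pantothenate from pantetheine, and Lpin1 is a phosphatidate phosphatase that also acts as a transcriptional co-activator.

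The stretches before the transcription start are shown for 3 of the genes, because Fgf21 and Creb3l3 share regulators in the liver and had Vnn1 and Angptl4 as their companions across mice, while Pdk4 went its own way. RefSeq's promoter table for GRCm38.p6 held 4 of the 6 genes (Fgf21, Creb3l3, Pdk4 and Lpin1) in 5 windows, and Angptl4 and Vnn1 have no entry in it. Each line gives the 250 bases before a start site, 5′ to 3′ on the strand of the gene, with matches to the searched motifs in capitals. Creb3l3 has 2 annotated start sites.
Fgf21, chr7:45615491-45615740, minus strand: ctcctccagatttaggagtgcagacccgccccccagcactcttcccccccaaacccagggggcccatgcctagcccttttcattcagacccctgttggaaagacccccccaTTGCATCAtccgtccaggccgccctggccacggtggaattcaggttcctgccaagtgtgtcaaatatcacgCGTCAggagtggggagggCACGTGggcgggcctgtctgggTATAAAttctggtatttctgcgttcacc
Creb3l3, outer start site, chr10:81098873-81099122, minus strand: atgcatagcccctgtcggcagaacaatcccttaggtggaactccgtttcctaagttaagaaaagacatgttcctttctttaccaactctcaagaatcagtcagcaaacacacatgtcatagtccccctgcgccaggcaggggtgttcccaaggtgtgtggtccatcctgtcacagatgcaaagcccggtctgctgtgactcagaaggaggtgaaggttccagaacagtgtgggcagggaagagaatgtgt
Creb3l3, inner start site, chr10:81092592-81092841, minus strand: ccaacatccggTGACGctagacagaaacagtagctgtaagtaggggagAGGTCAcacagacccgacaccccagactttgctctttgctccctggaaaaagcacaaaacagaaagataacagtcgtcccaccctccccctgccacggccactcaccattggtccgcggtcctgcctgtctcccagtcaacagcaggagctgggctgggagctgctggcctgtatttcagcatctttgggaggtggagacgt
Pdk4, chr6:5496279-5496528, minus strand: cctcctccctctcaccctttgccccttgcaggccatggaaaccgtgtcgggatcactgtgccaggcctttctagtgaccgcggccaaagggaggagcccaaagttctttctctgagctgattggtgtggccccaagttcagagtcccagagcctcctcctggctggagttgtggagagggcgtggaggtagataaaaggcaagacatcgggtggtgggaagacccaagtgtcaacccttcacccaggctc

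The Fgf21 window held TTGCATCA, a form of the composite element bound by C/EBP and ATF4, from position -139 to -132, where -1 is the last base before the start. That motif was present on either strand in 0.791% of the 32851 windows of this length in the table. It also held the E-box CACGTG from -50 to -45 (6.02% of windows), the cyclic AMP half-site TGACG on the opposite strand from -68 to -64 (17.8%) and TATAAA from -28 to -23 (12.4%). The inner Creb3l3 window held the nuclear receptor half-site AGGTCA from -202 to -197 (14.0% of windows) and TGACG from -239 to -235. The Lpin1 window, chr12:16610967-16611216 on the minus strand, held AGGTCA from -74 to -69. This window lies inside the annotated gene, which spans 16535669 to 16653903. None of the searched letters were in the Pdk4 window or the outer Creb3l3 window. The full direct repeat AGGTCANAGGTCA bound by PPARα with its partner RXR (0.0335% of windows), the complete cyclic AMP element TGACGTCA (1.55%), the D-box TTANGTAA of the clock output factors (2.06%) and the glucocorticoid element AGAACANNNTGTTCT (0.00913%) were in none of the 5 windows. Matches were sought on both strands, the longer repeats contain the half-sites, no motifs overlapped within these windows, and a match describes letters only.

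The probes lay, in mm9 coordinates as the scanner files give them, at chr7:52869305-52869364 for Fgf21, chr17:33911880-33911939 for Angptl4, chr6:5433441-5433500 for Pdk4, chr10:80547080-80547139 for Creb3l3, chr10:23624524-23624583 for Vnn1 and chr12:16543023-16543082 for Lpin1. No annotation of that build was used, so the exon or untranslated region under a probe is not given. All 6 probes were well above background in both channels on all 24 arrays, and none was saturated or lost to an outlier flag. Lpin1 had 4 probes. The second brightest gave a log2 ratio that correlated with that of the used probe at r = 0.963 over the 24 arrays. The other two were dim, with mean Cy5 signals of 109 and 82.7 against 2120, and correlated at r = 0.203 and -0.0388.

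Each of 3 slides held 4 arrays of each diet and was scanned once, so slide and scan cannot be told apart. Between 46.6% and 51.3% of spots were well above background in Cy5, and all pairs of arrays correlated positively in their log2 ratios, from r = 0.217 to 0.733. The mouse GLU+GAL 4 stood apart, with the highest level of the skeletal muscle list. Its array also had the lowest share of spots well above background in Cy3 (36.5%) and the highest SD of log2 ratios (0.437). GLU+GAL 12, labelled female, gave a signal for Ddx3y and Eif2s3y on the Y chromosome and none above background for Xist. Both were kept, and counts without them are given where they bear on a result. Of the hepatocyte markers 15 of 15 were above background on every array. Of 15 skeletal muscle markers 3 were above background on every array and 4 on none. These counts were 5 and 6 of 14 pancreas markers, 3 and 6 of 12 kidney and adrenal markers, and 7 and 0 of 10 adipocyte markers. In a piece of whole liver, fewer cells of a type and less RNA per cell cannot be told apart. Mice of one diet were separate animals, and p-values measure the spread between them.

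The level of the hormone Fgf21 ranged more widely between mice than that of any other of the 6 genes. In GLU mice its log2 ratio had a lowest value of -1.14, a median of -0.05 and a highest value of 1.02. In GLU+GAL mice it had a lowest value of -1.97, a median of -0.67 and a highest value of 1.70. The groups overlapped, with 8 of the 12 GLU+GAL mice inside the GLU range, and the highest mouse of all, GLU+GAL 1, belonged to the diet with the lower median. The mean was 0.02 ± 0.68 (SD, n = 12) in GLU and -0.57 ± 1.00 (SD, n = 12) in GLU+GAL. The difference of GLU+GAL minus GLU was -0.59 ± 0.32 (SE; 95% interval -1.24 to 0.07), with an unadjusted p of 0.0768 and an adjusted p of 0.999 in limma. This difference was less than 1 SD between mice of a diet, and 9 of 12 mice on GLU+GAL fell short of the mean for GLU. It was -0.41 on the first slide, -0.09 on the second and -1.26 on the third, so the 3 slides pointed the same way with unequal size. With Agilent's processed signals it was -0.90 and with Cy5 alone -0.93, more than 1.5 times the value above, and neither passed the adjusted threshold.

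Angptl4, the lipase inhibitor, gave a tighter group of GLU mice and 1 far GLU+GAL mouse. Its log2 ratio ran from -0.72 through a median of 0.09 to 0.61 in GLU. In GLU+GAL it ran from -1.57 through -0.08 to 0.78. The ranges overlapped for 10 of the 12 GLU+GAL mice, the lowest value being that of GLU+GAL 3. The means were -0.01 ± 0.37 in GLU and -0.15 ± 0.61 in GLU+GAL (SD, n = 12 each), a difference of -0.15 ± 0.19 (SE; adjusted p = 0.999, limma). Without GLU+GAL 3 the difference was -0.02.

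Creb3l3, the transcription factor, was the least variable of the 6. In GLU it ran from -0.49 through a median of -0.06 to 0.48, and in GLU+GAL from -0.59 through -0.14 to 0.33. All but 1 of the GLU+GAL mice lay inside the GLU range, the exception again being GLU+GAL 3. The means were -0.08 ± 0.31 and -0.12 ± 0.27 (SD, n = 12 each), and the difference was -0.04 ± 0.11 (SE; 95% interval -0.27 to 0.19; adjusted p = 0.999, limma). Its sign turned under median centring, where it was 0.02.

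Vnn1, the pantetheinase, spread nearly as widely as Fgf21. It ran from -1.40 through -0.12 to 1.13 in GLU and from -2.23 through -0.02 to 0.99 in GLU+GAL. Only GLU+GAL 3 lay outside the GLU range, and the GLU+GAL median was the higher one although the mean was lower. The means were -0.15 ± 0.77 and -0.24 ± 0.90 (SD, n = 12 each), with a difference of -0.09 ± 0.31 (SE; adjusted p = 0.999, limma). Without GLU+GAL 3 the difference was 0.09.

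Pdk4, the kinase that shuts off pyruvate dehydrogenase, had nearly equal medians. It ran from -1.06 through -0.24 to 0.85 in GLU and from -1.57 through -0.24 to 1.19 in GLU+GAL, with 8 of 12 GLU+GAL mice inside the GLU range. The means were -0.11 ± 0.63 and -0.31 ± 0.88 (SD, n = 12 each). The difference of -0.20 ± 0.28 (SE; adjusted p = 0.999, limma) did not hold within slides, being 0.34 on the first, 0.11 on the second and -1.04 on the third.

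Lpin1, the phosphatidate phosphatase, was the one gene of the 6 with a higher mean in GLU+GAL. It ran from -0.63 through -0.02 to 0.87 in GLU and from -0.65 through 0.15 to 1.02 in GLU+GAL, with 10 of 12 GLU+GAL mice inside the GLU range. The means were 0.08 ± 0.53 and 0.18 ± 0.46 (SD, n = 12 each), and the difference was 0.10 ± 0.19 (SE; 95% interval -0.29 to 0.48; adjusted p = 0.999, limma).

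**Figure D1:**
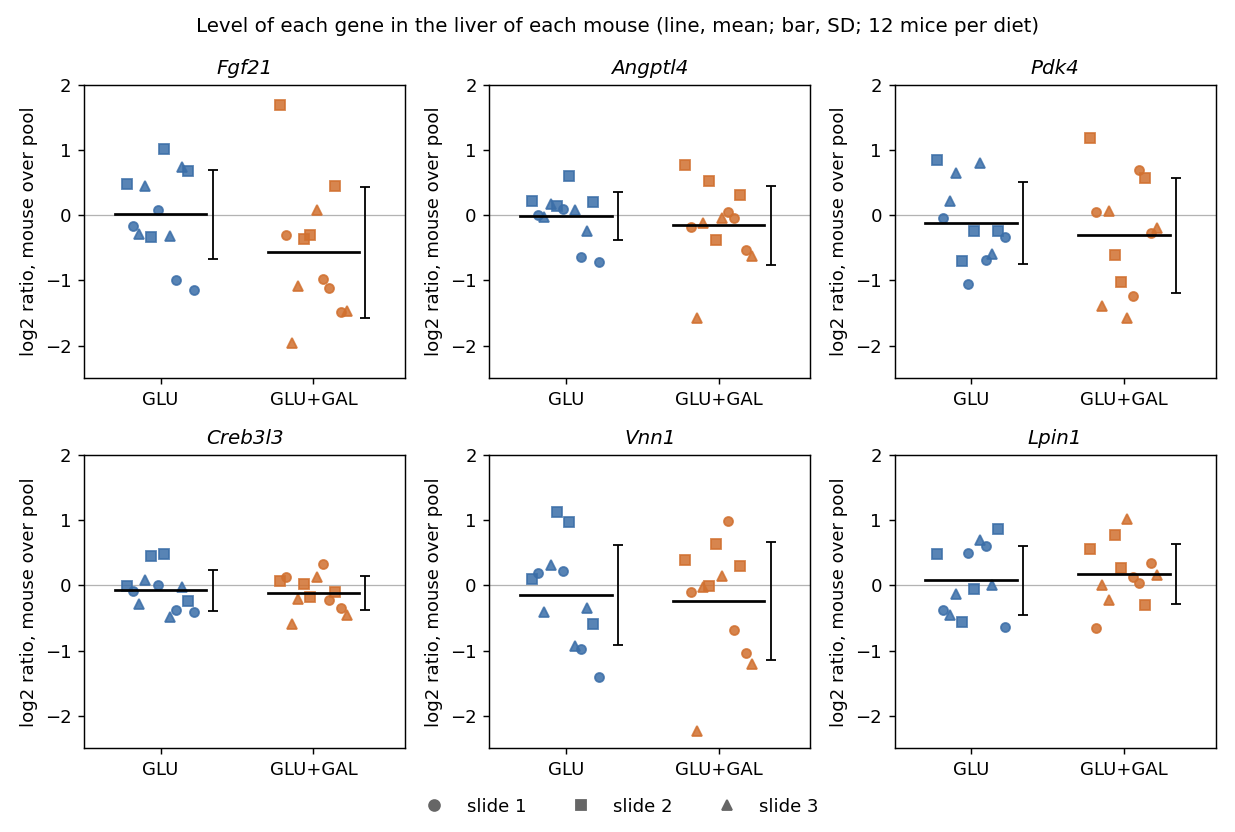
Log2 ratio of mouse over pool for each gene (vertical axis) in GLU and GLU+GAL mice; each point is 1 mouse, its shape the slide, the line the mean of 12 mice and the bar 1 SD. The diets overlap for every gene, and GLU+GAL 3 is the lowest point for Fgf21 (-1.97), Angptl4 (-1.57), Creb3l3 (-0.59) and Vnn1 (-2.23).

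So 0 of the 6 genes passed the threshold between diets, beside 0% of all genes tested by limma. At an unadjusted p below 0.05 there were again 0 of 6, beside 4.31% of all genes (803 of 18649; 2.66% lower and 1.65% higher in GLU+GAL). Leaving out GLU 3 was the one omission of a single mouse that gave any gene past the adjusted threshold, and that was 1 gene. Because the 95% intervals reach from -1.24 to 0.07 for Fgf21 and from -0.78 to 0.39 for Pdk4, differences of that size were not resolved with 12 mice per diet.

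The partners of these genes gave no call between diets either. Of 7 tested genes of the Fgf21 family and its receptors 6 were lower in GLU+GAL, with a median difference of -0.03, and the co-receptor Klb differed by -0.02 ± 0.08 (SE). Of 10 tested genes around Angptl4 and lipoprotein lipase, 6 were lower, and the largest unadjusted signal was that of Gm6484, a name for the gene of angiopoietin-like 8, which is induced by feeding. Gm6484 had a mean log2 ratio of 0.16 in GLU and -0.34 in GLU+GAL, a difference of -0.50 ± 0.19 (SE; unadjusted p = 0.0127, adjusted p = 0.999, limma). Among 12 tested genes of pyruvate dehydrogenase and its kinases 4 were lower, and Pdk1 and Pdk2 differed by 0.10 ± 0.12 and 0.04 ± 0.10 (SE). The 43 tested genes of PPARα and fatty acid oxidation had a median difference of -0.05, with 30 of 43 lower, beside a median of 0.00 over all genes. The 16 tested Creb3l3 targets had a median difference of -0.06 with 12 lower, and 4 of them, among which the fatty acid elongase Elovl5 at -0.25 ± 0.09 (SE; adjusted p = 0.999, limma), were lower at an unadjusted p below 0.05, beside 2.66% of all genes. Lpin2 and Lpin3, the paralogues of Lpin1, differed by 0.01 ± 0.11 and 0.06 ± 0.06 (SE).

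Markers of the liver's own cells had mostly lower means in GLU+GAL. Of 12 tested Kupffer cell markers, which mark the resident macrophages, 12 were lower in GLU+GAL with a median difference of -0.205, and of 15 hepatocyte markers 12 were lower with a median of -0.13. At an unadjusted p below 0.05, 6 of the 12 and 8 of the 15 were lower and 0 higher, beside 2.66% of all genes, and 0 passed the adjusted threshold in limma. Under median centring the counts at that unadjusted p were 2 and 1, with 12 and 10 lower, and in Cy5 alone 3 and 1, with 12 and 9 lower and medians of -0.223 and -0.0115. Their part in the differences of the 6 genes was not tested.

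The levels of these genes were spread widely between animals. Within diets the SD of the log2 ratio was 0.86 for Fgf21, 0.84 for Vnn1, 0.76 for Pdk4, 0.50 for both Angptl4 and Lpin1 and 0.29 for Creb3l3, beside a median of 0.17 over all genes tested. The SDs of Fgf21, Vnn1 and Pdk4 stood each at percentile 99.7 of all genes, those of Angptl4 and Lpin1 at 98.7 and that of Creb3l3 at 91.6. From the lowest to the highest mouse, the corrected ratio spanned 12.7-fold for Fgf21, 10.3-fold for Vnn1 and 6.77-fold for Pdk4. It spanned 5.10-fold for Angptl4, 3.19-fold for Lpin1 and 2.10-fold for Creb3l3. The constant added to both signals narrows such spans more for dim probes. In the order of these SDs, Fgf21, Vnn1 and Pdk4 lay close together, then Angptl4 and Lpin1, and last Creb3l3, and differences between neighbours were not tested. These are spreads of ratios within a probe and say nothing of the absolute level of one gene against another.

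The pool gives a measure of how much of that spread the arrays themselves produce, since the same Cy3 material was on every array. For Fgf21 the SD of the log2 signal over 24 arrays was 1.32 in Cy5 and 0.0966 in Cy3. For Vnn1 it was 0.875 and 0.058, for Pdk4 0.923 and 0.0677, for Angptl4 0.492 and 0.0721, for Lpin1 0.588 and 0.0899, and for Creb3l3 0.262 and 0.104. In all 6 genes the individual mice varied more than the pool, Creb3l3 least so. Over all genes tested the medians were 0.223 in Cy5 and 0.104 in Cy3, so the pool signal of Creb3l3 varied about as much as that of the median gene and that of the other 5 less. The raw pool signal of Fgf21 lay between 247 and 371. Its spread does not gauge the noise of Cy5 signals below that, which went down to 68.8. The log2 ratio correlated with the pool signal of the same gene at r = 0.781 for Lpin1 and 0.539 for Fgf21, and between -0.385 and 0.168 for the other 4. The part of this relation in the results was not tested. Values from Cy5 alone, which are not divided by the pool signal, are given for the pairs and for the counts on the fatty acid oxidation list. The log2 signals of both channels are Agilent's processed signals. Whether that processing of one channel draws on the other was not checked.

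**Figure D2:**
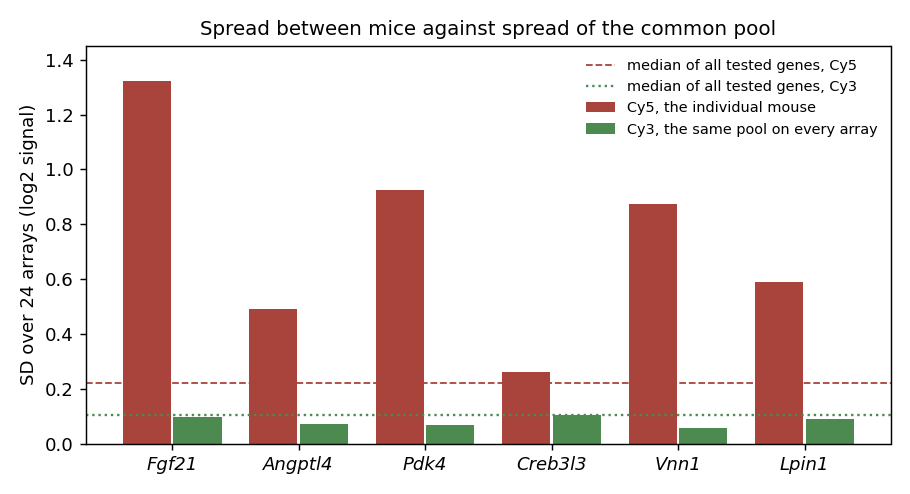
SD over 24 arrays of the log2 signal (vertical axis) of each gene in Cy5, which carries the individual mouse, and in Cy3, which carries the same pool on every array; dashed and dotted lines are the medians of all tested genes, 0.223 and 0.104. Fgf21 has the tallest Cy5 bar (1.32), and all 6 Cy3 bars lie at or below 0.104.

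The spread itself did not differ detectably between diets. The mean absolute deviation from the median of a diet was 0.56 in GLU and 0.78 in GLU+GAL for Fgf21, 0.49 and 0.71 for Pdk4, and 0.25 and 0.42 for Angptl4. Those of Creb3l3 (0.24 and 0.21), Vnn1 (0.63 and 0.65) and Lpin1 (0.45 and 0.34) lay closer together or the other way round. None of the 6 passed the threshold in limma (adjusted p from 0.999 to 1; unadjusted p from 0.197 to 0.942), beside 0% of all genes called and 2.67% at an unadjusted p below 0.05.

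Slides moved with some of the genes. Fgf21 averaged -0.76 ± 0.55 on the first slide, 0.42 ± 0.73 on the second and -0.48 ± 0.95 on the third (SD, n = 8 each). Vnn1 averaged -0.35 ± 0.81, 0.36 ± 0.56 and -0.59 ± 0.84, and Angptl4 -0.25 ± 0.33, 0.30 ± 0.35 and -0.29 ± 0.57. The second slide had the highest mean for all 3 genes, and the lowest mean was on the first slide for Fgf21 and on the third for Vnn1 and Angptl4. A test of slide with diet as a covariate gave an unadjusted p of 0.0033 for Fgf21, 0.0106 for Angptl4 and 0.0282 for Vnn1, and an adjusted p of 0.754 for each (limma; 0% of all genes called, 6.57% at an unadjusted p below 0.05). Creb3l3, Pdk4 and Lpin1 gave unadjusted p-values of 0.0904, 0.631 and 0.54. The mean log2 pool signal of Fgf21 was 0.0988, 0.253 and 0.113 on the 3 slides, also highest on the second, that of Angptl4 6.02, 6.00 and 6.03, and that of Vnn1 2.39, 2.41 and 2.35. The sources used here do not state how mice were assigned to slides.

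Over all 24 mice Fgf21, Angptl4, Creb3l3 and Vnn1 went up and down together, and Pdk4 and Lpin1 mostly did not. Not all of these relations held within slides. On the second slide r was -0.13 for Fgf21 and Vnn1, -0.05 for Angptl4 and Vnn1, and 0.06 for Fgf21 and Creb3l3. Of 15 pairs, 11 had a correlation above 0, and 5 were called, meaning that each gene followed the other at an adjusted p below 0.05 when the fit ran over all other tested genes with diet as a covariate. Pairs share the pool channel of each array. The smallest p that 100000 permutations can give is 1e-05. Mice were permuted over all 24 without regard to slide or diet, so differences between slides enter these permutation p-values.

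Creb3l3 and Vnn1 were the closest pair. Their log2 ratios correlated at r = 0.888 (permutation p = 1e-05) and rho = 0.851 (permutation p = 1e-05) over the 24 mice, and at 0.863 without the 2 mice farthest from the median of Creb3l3, GLU 5 and GLU 7. The correlation was 0.950 among GLU mice and 0.848 among GLU+GAL mice, 0.941, 0.782 and 0.879 within the 3 slides, and 0.908 in Cy5 alone. The adjusted p was 4.13e-06, and 0.000142 with slide as a block. Vnn1 changed by 2.57 log2 units per unit of Creb3l3, so a small excursion of the Creb3l3 RNA ratio went with a large one of Vnn1. The probes differed in brightness, with raw Cy5 signals from 23019 to 50128 for Creb3l3 and from 275 to 4011 for Vnn1. The part of brightness in this slope, and in the small spread of Creb3l3, was not tested. GLU 5 and GLU 7 were high for both, at 0.46 and 0.48 for Creb3l3 and 1.13 and 0.97 for Vnn1, and GLU+GAL 3 was the lowest of all mice for both.

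Fgf21 and Angptl4, the 2 secreted regulators, came next. They correlated at r = 0.785 (permutation p = 2e-05) and rho = 0.705 (permutation p = 0.00023), and at 0.679 without GLU+GAL 1 and GLU+GAL 3, the mice farthest from the median of Fgf21. The correlation was 0.778 among GLU and 0.794 among GLU+GAL mice, 0.626, 0.661 and 0.761 within the 3 slides, and 0.805 in Cy5 alone. The adjusted p was 0.00142, and 0.0711 with slide as a block, where the correlation was 0.705. GLU+GAL 1 was highest for both and GLU+GAL 3 lowest for both.

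The cross pairs were looser and leaned on slide and on single mice. Angptl4 and Vnn1 correlated at r = 0.753 (permutation p = 1e-05; rho = 0.662, permutation p = 0.00055; 0.644 without the farthest 2), with an adjusted p of 0.00348. Within slides this correlation was 0.864, -0.05 and 0.879, so it did not hold on the second, and in Cy5 alone it was 0.767. Its adjusted p was 0.0792 with slide as a block and 0.0805 without GLU+GAL 3.

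Angptl4 and Creb3l3 correlated at r = 0.664 (permutation p = 0.00022; rho = 0.603, permutation p = 0.00215; 0.617 without the farthest 2), with an adjusted p of 0.0259. Within slides the correlation was 0.786, 0.394 and 0.615, and in Cy5 alone 0.657. The call was lost with slide as a block (0.284), without GLU 12 (0.0756), without GLU+GAL 3 (0.113) and without GLU 7.

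Fgf21 and Vnn1 correlated at r = 0.593 (permutation p = 0.00227; rho = 0.567, permutation p = 0.00435; 0.483 without the farthest 2), with an adjusted p of 0.0275. Within slides the correlation was 0.570, -0.13 and 0.760, and in Cy5 alone 0.660. The adjusted p was 0.35 with slide as a block, 0.0815 without GLU 12 and 0.109 without GLU+GAL 3. Without both GLU+GAL 4 and GLU+GAL 12 this call was lost as well. Fgf21 and Creb3l3 correlated at r = 0.549 (permutation p = 0.00612; rho = 0.560, permutation p = 0.00542; 0.480 without the farthest 2) and were not called, the larger adjusted p being 0.0646. Within slides this correlation was 0.498, 0.0578 and 0.785. In Cy5 alone this pair was called, at r = 0.569 with an adjusted p of 0.0361. Without GLU+GAL 3 the number of called pairs was 2, and without GLU 12 it was 3.

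Pdk4 correlated with Angptl4 at r = 0.459 (permutation p = 0.023; rho = 0.388, permutation p = 0.0616) and with Fgf21 at 0.376 (permutation p = 0.071; rho = 0.298, permutation p = 0.157). Both relations rested on GLU+GAL 1 and GLU+GAL 3, without which they were 0.195 and 0.0991, and neither was called (adjusted p = 0.336 and 0.513). With Creb3l3 and Vnn1, Pdk4 correlated at -0.0903 and 0.0275 (permutation p = 0.675 and 0.899; rho = -0.106 and -0.0391). Lpin1 correlated with the other 5 genes between -0.149 and 0.192, with permutation p-values from 0.371 to 0.728. In Cy5 alone the uncalled pairs of Pdk4 and Lpin1 lay between -0.204 and 0.429.

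**Figure D3:**
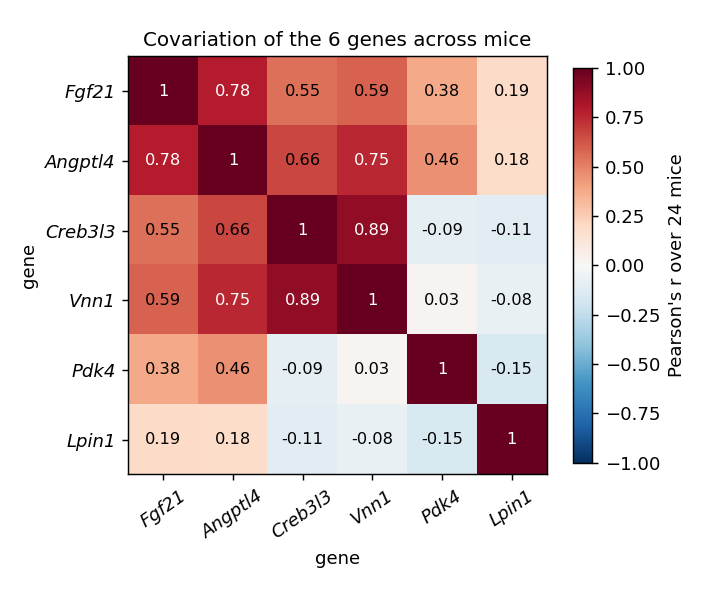
Pearson's r of the log2 ratio over 24 mice for each pair of the 6 genes (both axes list the genes; red is positive, blue negative). Fgf21, Angptl4, Creb3l3 and Vnn1 form a block of positive values from 0.549 to 0.888, and Pdk4 and Lpin1 lie mostly near 0.

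The 6 genes also differed in how much of the liver transcriptome moved with them. Creb3l3 had 826 genes that rose with it (4.43% of those tested) and 681 that fell (3.65%). For Vnn1 there were 800 rising (4.29%) and 654 falling (3.51%), for Fgf21 243 (1.3%) and 456 (2.45%), and for Angptl4 180 (0.965%) and 165 (0.885%). Pdk4 had 29 (0.156%) and 51 (0.273%), and Lpin1 had 1 rising gene (0.00536%) and 0 falling (0%). At an unadjusted p below 0.05 in limma Lpin1 had 630 of 18648 genes, the fewest. The other members had from 1982 (Pdk4) to 3858 (Creb3l3). With slide as a block the totals at the adjusted threshold became 607 for Creb3l3, 452 for Vnn1, 31 for Angptl4 and 6 for Fgf21. That of Pdk4 went from 80 to 79. The counts leaned on single mice, that of Pdk4 most often. Without GLU+GAL 8 there were 2 rising and 2 falling genes for Pdk4, without GLU+GAL 1 12 and 16, and its total moved by over 1.5 times in 10 of the 24 omissions of a single mouse (from 4 to 118 in all; the others were GLU 1, 5, 6, 8 and 10 and GLU+GAL 2, 7 and 10). For Angptl4 there were 15 rising and 9 falling genes without GLU+GAL 3, 55 and 47 without GLU 12, and 98 and 123 without GLU 7, and the falling ones were 95 without GLU+GAL 1 and 251 without GLU 8. For Fgf21 there were 109 and 283 without GLU+GAL 3, 124 and 225 without GLU 12, and 158 and 183 without GLU+GAL 1. Creb3l3 had 411 and 491 without GLU 7 and 451 falling without GLU 5, Vnn1 had 517 and 387 without GLU 12, and Lpin1 0 and 0 without GLU+GAL 7. In Cy5 alone the total was 1198 for Fgf21, and 1345 for Creb3l3 and 1546 for Vnn1. The split by direction depended on the normalisation. Of the genes called, 54.8% rose with Creb3l3, 55% with Vnn1, 52.2% with Angptl4 and 36.2% with Pdk4, and under median centring in place of loess these shares were 97.7%, 90.4%, 72% and 21.7%. In the authors' deposited value table they were 65.2% for Creb3l3 and 68% for Angptl4, and in Cy5 alone 1 gene rose and 5 fell with Lpin1.

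Most tested genes of PPARα and fatty acid oxidation rose with Creb3l3 and with Vnn1. Of the 43 tested, 34 rose with Creb3l3 and 35 with Vnn1, and 0 fell with either, beside 4.43% and 4.29% of all genes that rose. The median correlation of the 43 genes was 0.774 with Creb3l3 and 0.786 with Vnn1, beside -0.01 and 0.00 for all genes. Creb3l3 itself and Vnn1 are among the genes this receptor is known to control. The list holds the receptor too: Ppara, named after its values were seen, rose with Creb3l3 at r = 0.783 and with Vnn1 at 0.669. The arrays do not measure the activity of the receptor, and its part in these correlations was not tested.

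Among the members closest to Creb3l3 were Acsl1, which activates long-chain fatty acids (r = 0.930, adjusted p = 2.2e-08), and Eci2, an enoyl-CoA isomerase (r = 0.919). Acsl1 ran from -0.60 through -0.28 to 0.85 in GLU mice and from -0.94 through -0.35 to 0.12 in GLU+GAL mice. It was lowest in GLU+GAL 3 and highest in GLU 7, as Creb3l3 was. Among those closest to Vnn1 were Eci2 (r = 0.947, adjusted p = 7.38e-09) and Decr1, an auxiliary enzyme for unsaturated fatty acids (r = 0.920). Members that passed with neither gene were Cd36 (r = -0.197 with Creb3l3 and -0.122 with Vnn1), Acsm3, Acot3, Acot4, Cidea, Cidec, Ucp2 and Hadha, and Ehhadh passed with Vnn1 but not with Creb3l3; these were named after their values were seen.

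With slide as a block 31 of 43 rose with Creb3l3 (2.16% of all genes) and 29 with Vnn1 (1.71%), without both GLU+GAL 4 and GLU+GAL 12 it was 35 and 35, and leaving out each mouse in turn gave 30 to 35 and 31 to 35, each within 1.5 times of the counts above. In Cy5 alone the counts were 32 and 35, and under median centring 41 and 36, where 18.8% and 4.59% of all genes rose. With replicate number as a block they were lower, 10 and 15, where 1.61% and 0.327% of all genes rose. Whether these numbers pair mice was not settled.

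Angptl4 and Fgf21, which are PPARα targets as well, had fewer oxidation genes beside them. With Angptl4, 20 of the 43 rose and 0 fell (0.965% of all genes rose), led by Pex11a, a peroxisome-dividing protein (r = 0.814), the fatty acid carrier Fabp1 (r = 0.795) and the lipid droplet coat protein Plin2 (r = 0.784). With Fgf21 it was 4 of 43 (1.3% of all genes), namely Fabp1 (r = 0.823), Plin2 (r = 0.730), Pex11a (r = 0.652) and Acsl1 (r = 0.643). Without GLU+GAL 3 these counts were 2 for Angptl4 and 2 for Fgf21, and with slide as a block 3 and 0. In Cy5 alone they were 20 for Angptl4 (1.34% of all genes) and 9 for Fgf21 (2.83%). That of Angptl4 was also 12 without GLU 7 and 10 without GLU 12, and that of Fgf21 was 11 without GLU 5 and 7 without GLU+GAL 8. The median correlation of the 43 genes was 0.606 with Angptl4 and 0.359 with Fgf21. Differences between members in these counts were not tested.

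Pdk4 and Lpin1, both textbook fasting genes, stood apart from this group. Of the 43 oxidation genes 0 rose and 0 fell with Pdk4 (0.156% and 0.273% of all genes), and 0 and 0 with Lpin1 (0.00536% and 0%), with median correlations of -0.01 and 0.00. Leaving out any single mouse left these counts of rising genes at 0.

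Some genes of the fed state fell with Creb3l3 and with Vnn1. Of 25 tested targets of feeding, insulin and ChREBP, 8 fell and 1 rose with Creb3l3 (3.65% and 4.43% of all genes), with a median correlation of -0.34, and the other 16 did not pass. Those that fell with the smallest p were Acly, which makes cytosolic acetyl-CoA for lipid synthesis (r = -0.743, adjusted p = 0.000504), Srebf1, the lipogenic transcription factor (r = -0.756), the desaturase Scd1 (r = -0.674) and Pgd of the pentose phosphate pathway (r = -0.699). The one that rose was Gpd1, glycerol-3-phosphate dehydrogenase (r = 0.658). With Vnn1, 7 fell and 1 rose (3.51% and 4.29% of all genes), again with Acly (r = -0.750) and Srebf1 (r = -0.773) in front. Leaving out each mouse gave 5 to 9 for both genes, with 5 without GLU 7, slide as a block gave 4 and 3, and median centring gave 2 and 2, where 0.45% and 0.488% of all genes fell. Srebf1 also fell with Angptl4 (r = -0.767) and with Fgf21 (r = -0.637), the one feeding target that fell with either.

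Of the hormone-driven fasting genes few passed in either direction. Of 31 tested targets of glucagon, FOXO1 and glucocorticoid, 0 rose and 7 fell with Vnn1 (3.51% of all genes), among them the amino acid catabolic enzymes Tat (r = -0.709) and Sds (r = -0.583), the sestrins Sesn1 (r = -0.663) and Sesn3 (r = -0.628), and the nuclear receptor Nr4a1 (r = -0.553). Without GLU 12 the count was 2, without GLU+GAL 3 it was 3, without GLU 7, GLU+GAL 1 or GLU+GAL 12 it was 4, with slide as a block it was 1 (0.719% of all genes), under median centring 1 (0.488%) and in Cy5 alone 4 (3.86%). With Creb3l3 0 rose and 3 fell (4.43% and 3.65% of all genes), with Angptl4 0 rose and 3 fell (0.965% and 0.885%), and with Fgf21 1 rose and 1 fell (1.3% and 2.45%).

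Pdk4 had clock genes beside it. Of 18 tested clock genes 2 rose and 3 fell with Pdk4, where 0.156% and 0.273% of all genes did. The rising ones were Nfil3, a repressor of D-box promoters (r = 0.710, adjusted p = 0.022), and Arntl, the BMAL1 partner of CLOCK (r = 0.689, adjusted p = 0.0343). The falling ones were the D-box activators Tef (r = -0.763, adjusted p = 0.0158) and Dbp (r = -0.706, adjusted p = 0.022), and Nr1d2, the REV-ERBβ repressor of Arntl (r = -0.675, adjusted p = 0.0456).

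The clock genes themselves varied widely between mice that were all killed in the light phase. Dbp ran from -2.64 through -0.95 to 0.26 in GLU and from -2.60 through -0.56 to 1.87 in GLU+GAL, and its highest value was in GLU+GAL 8, a mouse with Pdk4 at -1.23. Tef was lowest, at -1.63, in GLU+GAL 1, the mouse with the highest Pdk4. The sources used here do not state the hour of death of each mouse, and its part was not tested. With slide as a block 2 rose and 2 fell. Without GLU+GAL 1, and likewise without GLU+GAL 8, 0 rose and 0 fell. Without GLU 8 or GLU+GAL 7 0 rose and 1 fell, without GLU 6 0 rose, and without GLU+GAL 9 1 rose, so these calls rested on single mice.

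Pdk4 further rose with Gdf15 (r = 0.725) and Ddit3 (r = 0.673), stress-induced targets of ATF4, 2 of 22 tested on that list where 0.156% of all genes rose. Of the 31 tested targets of glucagon, FOXO1 and glucocorticoid, 1 rose and 2 fell with Pdk4, beside 0.156% and 0.273% of all genes. The cell-cycle inhibitor Cdkn1a rose (r = 0.686), and the metallothioneins Mt1 and Mt2 fell (r = -0.641 and -0.666). Of all genes, only 2 rose and 2 fell with Pdk4 without GLU+GAL 8, and 1 and 1 with replicate number as a block. Of 12 tested genes of pyruvate dehydrogenase and its kinases, 0 rose and 0 fell with Pdk4, and the paralogue Pdk2 fell with Fgf21 (r = -0.694).

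**Figure D4:**
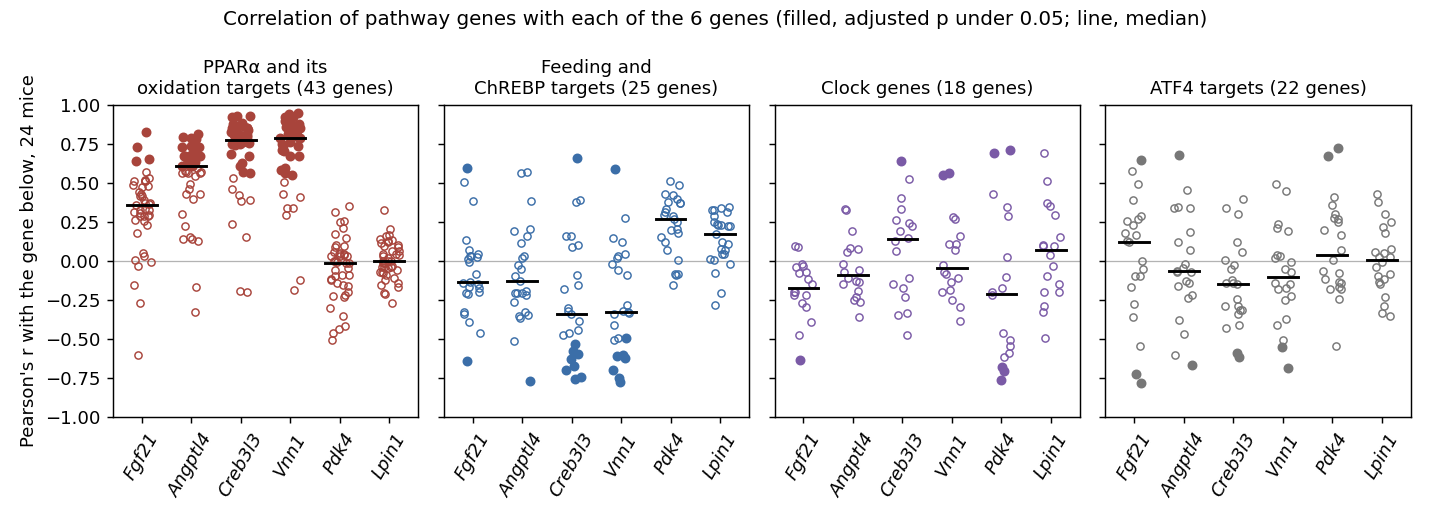
Pearson's r over 24 mice (vertical axis) of each gene of 4 pathway lists with each of the 6 genes (horizontal axis); filled points had an adjusted p below 0.05 in limma and black lines are medians. PPARα and oxidation genes lie high with Creb3l3 and Vnn1 (medians 0.774 and 0.786) and around 0 with Pdk4 and Lpin1, and clock genes reach both extremes with Pdk4.

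Nearest partners of the individual genes were sparser on the other lists. With Fgf21, a known ATF4 target itself, 1 of 22 ATF4 targets rose and 2 fell, where 1.3% and 2.45% of all genes did: Cebpb (r = 0.649), Cth (r = -0.781) and Vldlr (r = -0.721). None of the 7 tested genes of the Fgf21 family and receptors moved with Fgf21. Among the angiopoietin-like genes, Angptl6 fell with Creb3l3 (r = -0.711) and Vnn1 (r = -0.729). Creb3, a sister of Creb3l3, rose with Fgf21 (r = 0.723), Creb3l3 (r = 0.611) and Vnn1 (r = 0.631).

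Vnn1 releases the vitamin from which coenzyme A is made, and most genes of coenzyme A synthesis did not pass with it. Of 12 tested, 2 rose with Vnn1 and 0 fell, where 4.29% and 3.51% of all genes did: Ppcs, an enzyme of coenzyme A synthesis (r = 0.853), and Slc25a42, which carries coenzyme A into mitochondria (r = 0.725). Both rose with Creb3l3 too (r = 0.745 and 0.821). Of 16 tested Creb3l3 targets, 2 rose with it, namely Acot2 (r = 0.752), which the oxidation list also holds, and Apoa5 (r = 0.568), and 3 fell, namely Fads1 (r = -0.561), Crp (r = -0.528) and Hamp2 (r = -0.653), beside 4.43% and 3.65% of all genes. Of 12 tested genes around the lipins 0 moved with Lpin1, and Ppap2b and Agpat3 rose with Creb3l3 (r = 0.799 and 0.617).

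Over the whole array, the gene most like Creb3l3 was Tor1b (r = 0.931), followed by Acsl1, and the least like was the polyamine oxidase Paox (r = -0.883). For Vnn1 the highest were Eci2 (0.947) and others such as Crot (0.942), a peroxisomal carnitine acyltransferase, and Paox was again low (-0.850). For Fgf21 the highest was Rapgef4 (0.843) and the lowest Dclk3 (-0.879) and the urea cycle enzyme Asl (-0.859). For Angptl4 these were Csrp3 (0.818) and Sh2d3c (-0.887), and for Pdk4 Arl4a (0.859) and Sh2b3 (-0.802). Lpin1 had 1 gene past the threshold, Arhgef26 (r = 0.809, adjusted p = 0.0091; 0.848 in Cy5 alone), and next to it Nampt, the clock-controlled enzyme of NAD synthesis, at r = 0.691 with an adjusted p of 0.983. These likenesses are over 24 mice and share the pool channel.

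**Figure D5:**
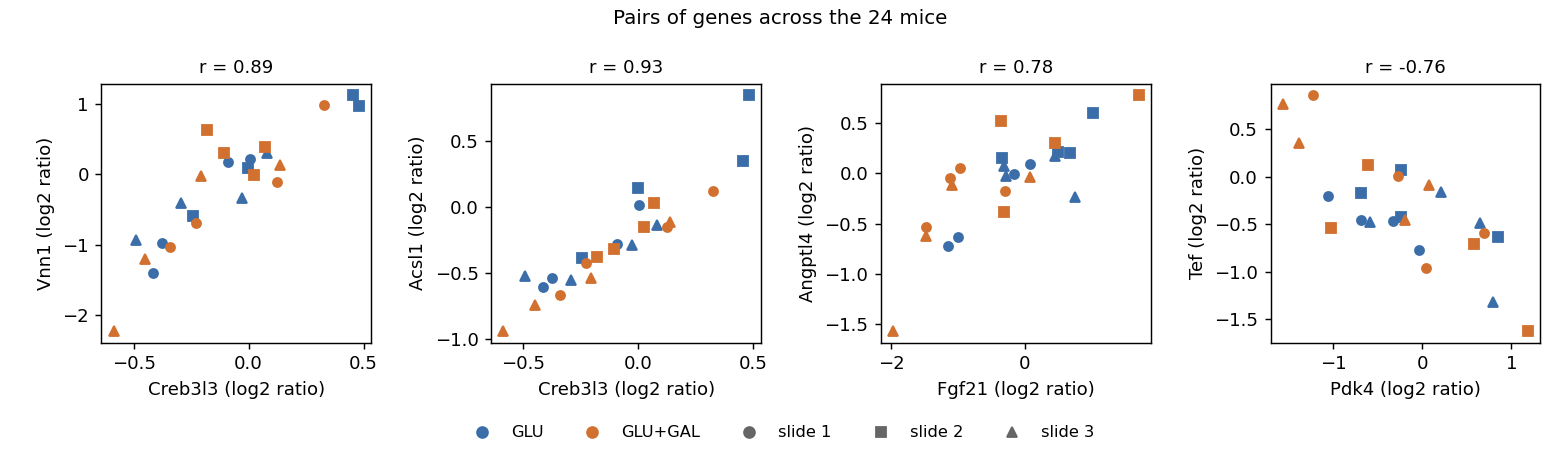
Log2 ratios of 2 genes against each other in the 24 mice (1 point per mouse; colour, diet; shape, slide) for Vnn1 and Acsl1 against Creb3l3, Angptl4 against Fgf21 and Tef against Pdk4. Points of both diets overlap in each panel, with GLU+GAL 3 at the lower left of the first 3 and GLU+GAL 1 at the lower right of the last.

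Markers of other tissues were set beside these patterns. The mean log2 ratio of the hepatocyte list ran from 0.162 to 0.539 in GLU and from 0.0555 to 0.386 in GLU+GAL, and correlated with the 6 genes between -0.314 and 0.0131. The adipocyte list ran from -0.368 to 0.116 and from -0.235 to 0.672. Of its 10 markers 7 were above background on every array and 0 on none, and Adipoq was above it on 4 of 24. The Kupffer cell list, with 12 of 12 tested markers above background on all arrays, ran from -0.191 to 0.682 and from -0.585 to 0.274, and correlated with Fgf21 at 0.381 and with the other 5 genes between -0.0339 and 0.102. The kidney and adrenal list correlated with Creb3l3 at -0.494, with Fgf21 at -0.470 and with Vnn1 at -0.449, with 4 of its 12 genes tested, and the pancreas list, with 6 of 14, at -0.451 with Creb3l3. The erythroid list reached 0.298 with Creb3l3 and the muscle list stayed between -0.158 and 0.0972. Their part in the results was not tested.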

How the data were processed

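Liver RNA of 24 mice was hybridised on 24 Agilent 2-colour arrays, Cy5 for the mouse and Cy3 for the pool, per the labels' protocols. Spot intensity values of both channels were deposited by the authors as scanner output, made with Agilent Feature Extraction (version 10.7.3.1) as the submitters' processing notes say. A table of log2 values for 29287 spots was also deposited by the authors. Each of its columns followed its own array's Cy5, all column medians were 8.6, and its scaling is not stated. It served as an alternative.

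Mean signals were corrected by normexp (offset 50), log2 ratios normalised by loess within arrays, and outlier spots and controls left out. Probes had to be well above background in Cy5 on at least 6 arrays of a diet, with 1 probe per gene name. limma 3.58.1 (R 4.3.3; lmFit, eBayes, Benjamini-Hochberg over all genes, threshold 0.05, 2-sided) tested diet, spread, slide, and the regression of all other genes on each member with diet as a covariate. Permutation tests used 100000 resamples, 2-sided, with scipy and numpy. Partners named are the 5 highest and 3 lowest correlations and, per list, up to 5 called genes by smallest p. Some genes that the rule named are not reported here. The fits were tested on simulated data. Array number limits precision. Replicate numbers were not treated as pairs in the main fits, and whether they pair mice was not settled. The members and lists were chosen with earlier results of these data known, and the slide test, list counts and marker lists under other settings, and spreads and counts over all genes without single mice were added after the values were seen.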

Additional observations from a re-analysis of the deposited data

How the results depend on the processing

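No alternative run put any of the 6 genes past the threshold between diets. The difference of Creb3l3 turned sign under median centring (0.0241), in the deposited value table (0.045) and without both GLU+GAL 4 and GLU+GAL 12 (0.000536), and ran from -0.0819 to 0.00908 when single mice were left out. That of Vnn1 ran from -0.206 to 0.0896 with single mice left out. Within the first slide the differences of Angptl4, Pdk4, Creb3l3, Vnn1 and Lpin1 turned sign (0.14, 0.34, 0.19, 0.29 and -0.0586), and within the second those of Angptl4 and Pdk4 (0.00977 and 0.11). Leaving out single mice gave 0 to 1 genes of all past the threshold, and the difference in spread ran from -0.129 to 0.0934 for Vnn1 and from -0.0541 to 0.00262 for Creb3l3, with sign kept for the other 4 genes.

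Called pairs numbered 5 in the main analysis, 2 to 6 with single mice left out, 1 with slide as a block and 0 within each slide of 8 mice. Whether replicate numbers pair mice was not settled. For 2 of 12 numbers the GLU+GAL mouse of that number was the best match of the GLU mouse among GLU+GAL mice. The mice of a number correlated above 0.1 for 8 of the 12, with r from -0.384 to 0.521. With replicate number as a block, 0 pairs were called, and genes following a member fell to 1 for Fgf21, 2 for Angptl4, 2 for Pdk4, 371 for Creb3l3, 144 for Vnn1 and 0 for Lpin1. Under that block the oxidation genes that rose numbered 10 with Creb3l3, 15 with Vnn1 and 0 with Angptl4 or Fgf21, and 0 feeding targets fell with Creb3l3 or Vnn1, 0 hormone targets fell with Vnn1 and 0 clock genes moved with Pdk4. There Angptl4 and Lpin1 correlated at -0.11. Uncalled pairs near 0 turned sign: Creb3l3 and Lpin1 (0.20 under median centring, 0.15 on the third slide, -0.207 to 0.0132 with single mice out), Vnn1 and Lpin1 (0.065, 0.0483 on the first slide, 0.0272 on the third, -0.199 to 0.0295), Pdk4 and Vnn1 (-0.0729 with slide as a block, -0.43 and -0.24 within the first and second slides, -0.18 to 0.13), Pdk4 and Creb3l3 (-0.24 to 0.000628), and within the first slide Fgf21 and Pdk4 (-0.17), Fgf21 and Lpin1 (-0.15) and Angptl4 and Pdk4 (-0.0639). Within the second slide Fgf21 and Vnn1 (-0.13), Angptl4 and Vnn1 (-0.0478) and Pdk4 and Lpin1 (0.14) did.

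Counts of genes that follow a member moved by over 1.5 times under median centring (181 for Fgf21, 132 for Angptl4, 46 for Pdk4, 3582 for Creb3l3, 947 for Vnn1 and 4 for Lpin1), in Cy5 alone (1198 for Fgf21, 6 for Lpin1), in the value table (169 for Angptl4, 53 for Pdk4, 816 for Creb3l3), with slide as a block (6 for Fgf21, 31 for Angptl4, 607 for Creb3l3, 452 for Vnn1), with array weights (205 for Angptl4, 151 for Pdk4) and without both GLU+GAL 4 and GLU+GAL 12 (461 for Fgf21). With single mice left out they ran from 341 to 905 for Fgf21, 24 to 486 for Angptl4, 4 to 118 for Pdk4, 902 to 1639 for Creb3l3, 904 to 1773 for Vnn1 and 0 to 1 for Lpin1. Under median centring 3498 of the 3582 genes following Creb3l3 rose, against 826 of 1507, so the split by direction depends on the normalisation. The causes were not tested.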
